A study of Mus musculus with 3 samples.

Results

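Transcripts of 9 integrin genes, Itgal, Itgb2, Itga4, Itgb1, Itgb7, Itgae, Itga1, Itgav and Itgb3, were followed in sorted thymic iNKT cells of mice with and without BMT. The genes were taken as a list of symbols, which matched 9 of the 30406 gene identifiers shared by the 3 libraries, and they make up 9 of 27 integrin subunit genes that were looked up. Thymocytes were depleted of CD8+ cells and sorted for TCRβ and for binding of a CD1d tetramer, which the invariant receptor recognises, while CD24+ and NK1.1+ cells were gated out, and each group was sequenced as 1 droplet library. The C57BL/6 library came from untreated mice that were 7 weeks old by the labels. For BM only, F1 (C57BL/6 x BALB/c) hosts were lethally irradiated and given C57BL/6 bone marrow from which T cells had been removed, and for BM + Spl the same graft was given together with C57BL/6 splenic cells, which induce chronic GvHD. The BMT mice were 16 weeks old and 9 weeks past transplantation, so both BMT groups share irradiation, the marrow graft and age and differ in the splenic cells. Several mice were pooled in each library, therefore no value has a replicate check, no test between groups was possible, and every interval given covers counting error only.

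Integrins are cell surface receptors made of an alpha and a beta chain, and they hold cells to matrix proteins or to counter-receptors on other cells. In T cells, alpha L (Itgal) pairs with beta 2 (Itgb2) as LFA-1, which binds ICAMs, and alpha 4 (Itga4) pairs with beta 1 (Itgb1) as VLA-4, which binds VCAM-1 and fibronectin, or with beta 7 (Itgb7) as a receptor for MAdCAM-1 in the gut. Alpha E (Itgae, CD103) pairs with beta 7 and binds E-cadherin on epithelium, alpha 1 (Itga1, CD49a) pairs with beta 1 and binds collagen, and alpha v (Itgav) pairs with several beta chains, among them beta 3 (Itgb3) and beta 8. CD103 and CD49a are widely used as markers of T cells that reside in tissues.

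The chains meet the cytoskeleton through short cytoplasmic tails, and these are shown with the motifs common to alpha chains and those common to beta chains. The coding bases run from the first conserved motif to the last codon, taken from the GENCODE vM21 transcripts (GRCm38, the build that mm10 names), and the capitals mark the motifs. In alpha chains this is the membrane-proximal run of glycine, 2 phenylalanines, lysine and arginine, by which the alpha tail contacts the beta tail. Among the genes that differed most between cell types, Itga1 (ENSMUSG00000042284) lies at chr13:114953096-115101964 on the minus strand, Itgae (ENSMUSG00000005947) at chr11:73090583-73147446 on the plus strand and Itga4 (ENSMUSG00000027009) at chr2:79255426-79333123 on the plus strand.
Itga1: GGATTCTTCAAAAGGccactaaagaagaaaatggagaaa
Itgae: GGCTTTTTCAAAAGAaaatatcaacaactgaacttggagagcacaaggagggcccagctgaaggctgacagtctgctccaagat
Itga4: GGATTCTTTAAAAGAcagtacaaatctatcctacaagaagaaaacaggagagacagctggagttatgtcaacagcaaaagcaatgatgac
From the motif to the end, the tail of alpha 1 has 13 residues, that of alpha E 28 and that of alpha 4 30, and the codons directly after the motif differ. In beta chains the capitals mark a pair of asparagine, proline, any residue, tyrosine or phenylalanine motifs, which bind talin and kindlin, the proteins that switch integrins on. Itgb1 (ENSMUSG00000025809) lies at chr8:128685654-128733200 on the plus strand, Itgb7 (ENSMUSG00000001281) at chr15:102215995-102231944 on the minus strand and Itgb3 (ENSMUSG00000020689) at chr11:104608000-104670476 on the plus strand.
Itgb1: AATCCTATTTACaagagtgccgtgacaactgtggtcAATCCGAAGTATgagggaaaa
Itgb7: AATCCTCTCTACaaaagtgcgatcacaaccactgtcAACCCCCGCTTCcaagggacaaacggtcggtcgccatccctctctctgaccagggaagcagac
Itgb3: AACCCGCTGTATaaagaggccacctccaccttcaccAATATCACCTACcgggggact
The second motif of beta 3 has isoleucine in place of proline, and from the first motif on beta 7 has 33 residues where beta 1 and beta 3 have 19. The other members lie at chr7:127296260-127335138 (Itgal, ENSMUSG00000030830), chr10:77530252-77565708 (Itgb2, ENSMUSG00000000290) and chr2:83724397-83806916 (Itgav, ENSMUSG00000027087), all on the plus strand.

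Reads of different genes were captured with different efficiency, so levels are compared within a gene and never between genes. A level is the summed UMI count of a gene in a group of cells, divided by all UMIs of that group and multiplied by 1000000 (CPM), where a UMI marks 1 captured transcript, and brackets hold the exact 95% Poisson interval. After the filter 4434, 5970 and 5557 cells were kept in C57BL/6, BM only and BM + Spl, with a median of 12074, 4721 and 6463 UMIs. V beta segments, read in 89.5% and 89.17% of the BMT cells, were read in 19.85% of the C57BL/6 cells, and this library was also counted with another gene reference, so its levels are given beside those of BMT mice and the differences between them cannot be told apart from the processing. BM only and BM + Spl shared 43 barcodes, and neither shared any with C57BL/6. Within a library, 2 groups of cells are called different for a gene when CPM differ at least 1.5-fold and both groups together hold at least 200 UMIs.

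Cells were assigned by marker genes to gates that contained no integrin gene. The NKT1-like gate (markers such as Tbx21 and Nkg7) held 785, 2398 and 558 cells in C57BL/6, BM only and BM + Spl, the NKT2-like gate (Zbtb16, Il17rb, Il4) 1671, 781 and 1234, and the NKT17-like gate (Il23r, Ccr6) 201, 404 and 176. A Treg-like gate with Foxp3 held 1, 615 and 678 cells and a gate of cells with both Cd8a and Cd8b1 3, 147 and 325, so the sorted BMT cells were not all iNKT cells. The NKT1-like gate in particular was not alike in the 2 BMT libraries. Of its cells with a V beta call, 92.35% used a segment typical of iNKT cells in BM only and 35.85% in BM + Spl, and 43.19% of the BM + Spl cells stood just at the limit of the gate. Conventional T cells also use these segments, and they were found in 28.3% and 28.41% of Treg-like cells and in 38.39% and 36.82% of Cd8a+Cd8b1+ cells of BM only and BM + Spl. The share in the NKT1-like gate of BM + Spl (31.5 to 40.4%) was thus no higher than in Cd8a+Cd8b1+ cells of that library (30.9 to 43%). In it Cd4 was at 29.7 CPM in BM only and 222 in BM + Spl, Klrb1c, which encodes NK1.1, at 133 and 22.6, and Zbtb16, which encodes the iNKT factor PLZF, at 39.4 and 11.3. The name NKT1-like therefore stands for the gate. Its ratios of BM + Spl over BM only are given below also for cells with iNKT V beta segments, which in BM + Spl does not select iNKT cells in this gate beyond that base rate. Its ratios over NKT2-like cells of BM + Spl are given for the whole gate. In the NKT2-like gate the shares were 95.24% and 95.51%, while in the NKT17-like gate they were 67.2% and 39.58%, the latter also near that of Cd8a+Cd8b1+ cells.

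**Figure D1:**
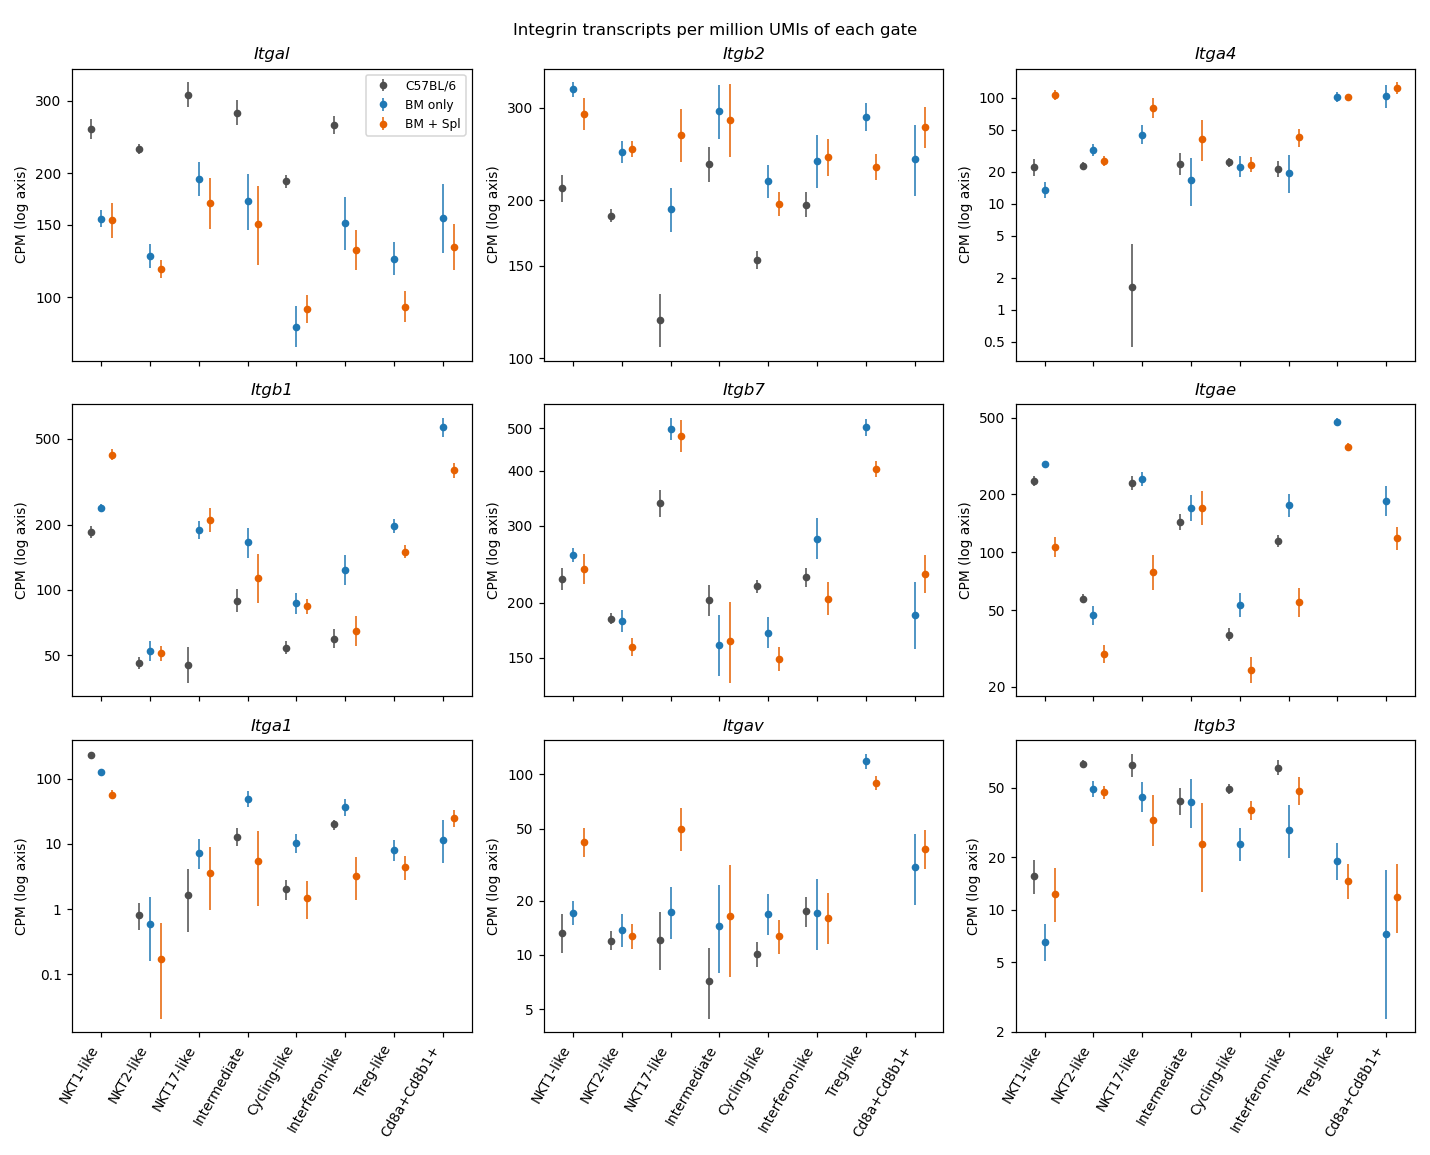
Level of each integrin gene (CPM, log axis, each panel with its own range) in 8 gates of the 3 libraries, for gates with at least 50 cells. Points are CPM of summed UMIs and bars exact 95% Poisson intervals; Itga1 stands above 50 CPM in the NKT1-like gate of every library and below 1 CPM in every NKT2-like gate.

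NKT1-like cells differed from NKT2-like cells of their own library mainly in Itga1, Itgae, Itgb1 and Itgb3. In C57BL/6, 4 of 9 members passed 1.5-fold against 26.1% of all genes tested, 3 higher and 1 lower in NKT1-like cells. In BM only, 5 of 9 passed against 27.2%, 3 higher and 2 lower. In BM + Spl, 6 of the 8 members with enough UMIs passed against 27.8%, 5 higher and 1 lower. The median log2 ratio of these members was 0.17, 0.40 and 1.16, beside 0.04, -0.03 and -0.01 over all genes tested. The BM + Spl ratios compare whole gates, in which 35.85% and 95.51% of cells with a V beta call had iNKT segments. They are therefore not read as a difference between subsets of iNKT cells.

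Itga1, the collagen-binding alpha 1 chain, had the largest ratio of the 9 members between these gates in all 3 libraries. In NKT1-like cells it was at 229.9 CPM (217 to 243) in C57BL/6, 127 (120.0 to 134) in BM only and 56.8 (48.3 to 66.5) in BM + Spl. NKT2-like cells had 0.801 (0.482 to 1.25), 0.593 (0.162 to 1.52) and 0.169 (0.0205 to 0.611), from 19, 4 and 2 UMIs. The intervals were far apart in every library, and the ratios were 287-fold in C57BL/6 (log2 ratio 8.17, and 9.02 with stricter gates) and 214-fold in BM only. In BM + Spl the log2 ratio was 8.39 (6.51 to 11.45), from 158 UMIs in all, which is under the count minimum. In BM only and BM + Spl the NKT2-like level was not above that of B cell-like cells (2.858 and 2.905 CPM, from 2 UMIs each). The size of the ratios in the BMT libraries is therefore not read. NKT1-like cells held 83% of the Itga1 UMIs of the C57BL/6 library, 83.6% of those of BM only and 51.8% of those of BM + Spl.

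After each cell was thinned to 2500 UMIs, the share of NKT1-like cells with an Itga1 UMI was 38% in C57BL/6, 24.5% in BM only and 14.1% in BM + Spl. Before thinning these shares were 59.2%, 38.2% and 22.2%. In B cell-like cells, which should lack the gene and were thinned alike, 1.16% in BM only and 1.45% in BM + Spl had a UMI, or 1.16% and 2.78% before thinning, when their median depth was 6512.5 and 8403.5 UMIs against 4261 and 4186.5 of NKT1-like cells. Itga1 was thus detected in NKT1-like cells above the level that free RNA gives in unrelated cells of the same library.

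Itgb1, the partner of alpha 1 and alpha 4, was at 186 CPM in NKT1-like and 46 in NKT2-like cells of C57BL/6, a log2 ratio of 2.01 (1.89 to 2.14). In BM only it was at 239 and 52.4 (log2 ratio 2.19) and in BM + Spl at 422 and 51 (3.05). The NKT2-like level therefore lay between 46 and 52.4 CPM in the 3 libraries, while the NKT1-like level spread from 186 to 422. Itgae, the CD103 chain, was at 234 and 57.3 CPM in NKT1-like and NKT2-like cells of C57BL/6 (log2 ratio 2.03), at 288 and 47 in BM only (2.61) and at 106 and 29.5 in BM + Spl (1.85). Its direction was the same in the 3 libraries. The 29.5 CPM of NKT2-like cells in BM + Spl was no higher than in B cell-like cells of that library (36.3 CPM), so the size of that ratio is not read.

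Itgb3 had the opposite pattern and was the only member lower in NKT1-like cells in all 3 libraries past 1.5-fold. NKT2-like cells had 68.8, 49.3 and 47.1 CPM in C57BL/6, BM only and BM + Spl, and NKT1-like cells 15.6, 6.57 and 12.4, so that log2 ratios were -2.14, -2.91 and -1.93. In BM + Spl the NKT1-like level was not above that of B cell-like cells (15.98 CPM, from 11 UMIs), so the size of that ratio is not read. Itgav, whose product can pair with beta 3, did not share this pattern. It was at 13.25 and 12 CPM in NKT1-like and NKT2-like cells of C57BL/6 and at 17.1 and 13.8 in BM only, with overlapping intervals, and at 41.9 and 12.7 in BM + Spl (log2 ratio 1.72). The size of this last ratio is not read, as B cell-like cells of BM + Spl had 26.15 CPM (from 18 UMIs), more than NKT2-like cells.

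Itga4 was the member whose ratio changed direction between libraries. NKT1-like and NKT2-like cells of C57BL/6 had 22.2 (18.3 to 26.7) and 22.7 (20.8 to 24.7) CPM and were not told apart. In BM only NKT1-like cells were lower, with 13.5 against 32.1 CPM and a log2 ratio of -1.25 (-1.57 to -0.94), and among cells with iNKT V beta segments the log2 ratio was -2.24. In BM + Spl they were higher, with 106 against 25.3 CPM and a log2 ratio of 2.07 (1.83 to 2.31). The NKT2-like levels lay between 22.7 and 32.1 CPM in the 3 libraries, while the NKT1-like levels ran from 13.5 to 106.

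By CPM the LFA-1 chains were the most even of the members. NKT2-like cells were deeper, with medians of 13469, 8330 and 9213.5 UMIs in C57BL/6, BM only and BM + Spl. NKT1-like cells had 6121, 4261 and 4186.5, so even CPM does not mean even counts per cell. Itgal was at 256 and 229 CPM in NKT1-like and NKT2-like cells of C57BL/6, 155 and 126 in BM only, and 154 and 117 in BM + Spl. Its log2 ratios were 0.16, 0.30 and 0.39. Itgb2 had log2 ratios of 0.17, 0.40 and 0.22, and neither chain passed 1.5-fold in any library. Itgb7 had log2 ratios of 0.30, 0.50 and 0.59 and passed only in BM + Spl, just over the limit, where it fell below it in 3 of 9 alternative settings.

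**Figure D2:**
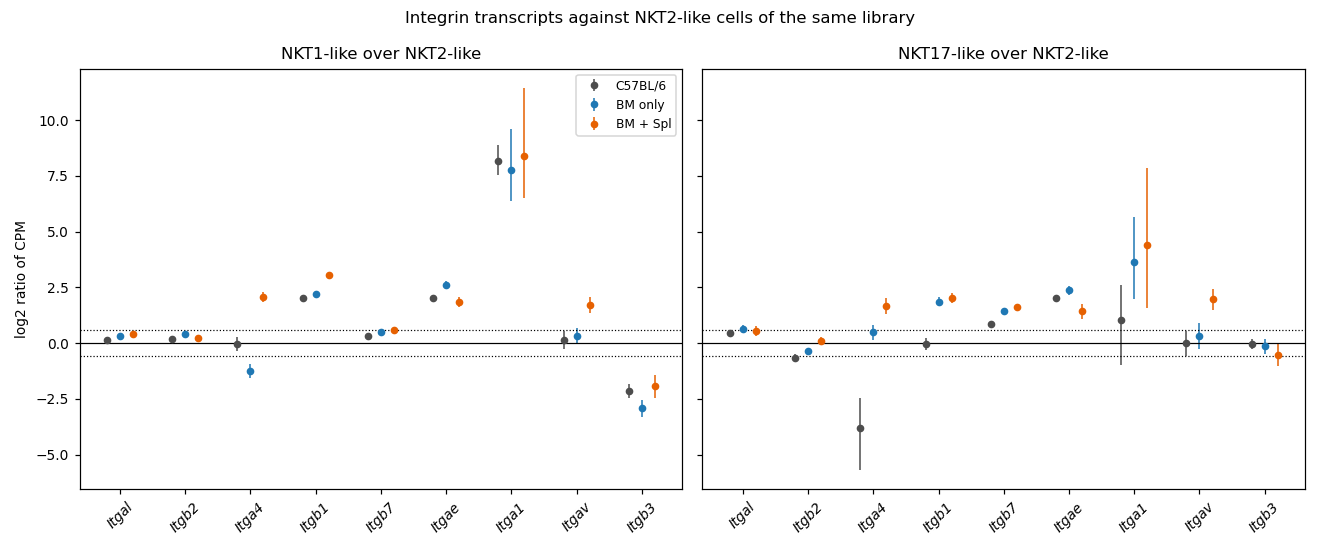
Log2 ratio of CPM of each integrin gene in NKT1-like cells (left) and NKT17-like cells (right) over NKT2-like cells of the same library. Points are ratios of summed UMIs, bars conditional exact 95% intervals and dotted lines 1.5-fold; Itga1 is near 8 in NKT1-like cells of every library, and Itga4 lies on both sides of 0 in both panels.

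NKT17-like cells shared the high Itgae of NKT1-like cells but not their Itga1, and had the highest Itgb7 of the NKT gates. In C57BL/6, 4 of 8 members with enough UMIs passed 1.5-fold, 2 higher and 2 lower than in NKT2-like cells, against 15.6% of all genes tested. In BM only 4 of 7 passed, all higher, against 21.0%, and in BM + Spl 5 of 8, all higher, against 26.1%. Itgb7 was at 337, 498 and 481 CPM in NKT17-like cells of C57BL/6, BM only and BM + Spl, and at 184, 182 and 159 in NKT2-like cells, with log2 ratios of 0.87, 1.45 and 1.60. Itgae had log2 ratios of 2.01, 2.36 and 1.42, so transcripts of both chains of the CD103 integrin were higher in the gate in each library. The last ratio was 2.10 among cells with iNKT V beta segments, 57 in the NKT17-like gate. Such segments do not select iNKT cells in this gate of BM + Spl beyond the base rate of Cd8a+Cd8b1+ cells. The size of the Itgae ratio in BM + Spl is not read, as the NKT2-like level there was not above that of B cell-like cells. After thinning, 12.9% (8.24 to 18.8%) of NKT17-like cells of BM + Spl had an Itgae UMI. The share in B cell-like cells there was 10.1% (4.18 to 19.8%).

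Itga1 in NKT17-like cells rested on 4, 16 and 4 UMIs, at 1.62, 7.26 and 3.55 CPM. Itgb1 was level with NKT2-like cells in C57BL/6 (45 and 46 CPM) and higher in both BMT libraries, with 190.2 CPM and a log2 ratio of 1.86 in BM only and 210.2 CPM and 2.04 in BM + Spl. Here the gate also held many cells without iNKT V beta segments, and in BM only the log2 ratio among cells with such segments was 1.29. Itga4 was almost missing from NKT17-like cells of C57BL/6, with 4 UMIs in 201 cells or 1.62 CPM (0.442 to 4.16), against 22.7 CPM in NKT2-like cells, a log2 ratio of -3.81 (-5.69 to -2.44) that was -2.21 when no cell was filtered out. NKT17-like cells of BM only had 44.9 CPM and those of BM + Spl 80.7, with log2 ratios of 0.48 and 1.67. Among cells with iNKT V beta segments the log2 ratio in BM only was -0.42 (-1.03 to 0.14), on the other side of 0, and that in BM + Spl 1.21. Itgav was higher in BM + Spl alone past 1.5-fold (49.7 against 12.7 CPM, log2 ratio 1.97, and 1.32 among cells with iNKT V beta segments). The BM + Spl ratios by such segments rest on 57 NKT17-like cells and, as above, are not read as those of iNKT cells. The size of the Itgav ratio is not read, as the NKT2-like level there was below that of B cell-like cells (26.15 CPM). Itgal passed in BM only (log2 ratio 0.62), where it fell below the limit in 3 of 9 alternative settings, and Itgb2 was lower in C57BL/6 (118 against 187 CPM, log2 ratio -0.66).

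Among the other gates, Treg-like cells had the highest levels of Itgae and Itgav. In BM only and BM + Spl, Itgae was at 478 (456 to 500.3) and 353 (338 to 369) CPM in Treg-like cells, above every other gate of its library. Itgav was at 118 and 89.6 CPM, and the next named gate had 30.6 (Cd8a+Cd8b1+) and 49.7 (NKT17-like), while cells in no gate had 43.3 and 44.1. Itgb7 was at 502 and 404, beside 498 and 481 in NKT17-like cells. These intervals overlapped in BM only, and that of NKT17-like cells lay higher in BM + Spl. Itgb1 was highest in BM only in cells with both Cd8a and Cd8b1 (566 CPM), while in BM + Spl these had 358 and NKT1-like cells 422. Itga4 was near or above 100 CPM in Treg-like cells (102 and 101), in Cd8a+Cd8b1+ cells (104 and 124) and in B cell-like cells (97.2 and 108), with overlapping intervals. In C57BL/6 and BM + Spl the lowest Itgae among gates of at least 50 cells was that of cycling-like cells (37.3 and 24.4 CPM).

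Across all cells of a library, the members that differed between BM + Spl and BM only were Itga1, Itgae and Itga4. Of the 9 members 3 passed 1.5-fold, 2 lower and 1 higher in BM + Spl, against 10.2% of all genes tested. Itga1 was at 45.8 CPM (43.6 to 48.1) in BM only and 6.98 (6.21 to 7.82) in BM + Spl, or -2.71 as log2 ratio (-2.90 to -2.53). Itgae was at 195 (190.1 to 199) and 86 (83.3 to 88.9), a log2 ratio of -1.18. Both intervals were apart by far. Itga4 was at 42.3 and 63.7 CPM, a log2 ratio of 0.59 that lay at the limit and fell below it in 2 of 9 alternative settings. Among cells with iNKT V beta segments the log2 ratios of Itga1 and Itgae were -4.03 and -1.77.

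These sums depend on how many cells fall in each gate, and NKT1-like cells made up 40.2% of BM only and 10% of BM + Spl cells. When the BM + Spl levels of each gate were weighted by the UMI shares of the gates in BM only, the log2 ratio of Itga1 was -1.23 in place of -2.71, and that of Itgae -0.99 in place of -1.18. Itga1 thus came closer to BM only by more than Itgae did. Itga4 had a weighted log2 ratio of 0.82 and Itgb1 of 0.34 in place of -0.20. The weighting takes a gate as alike in both libraries. In the NKT1-like gate, however, 92.35% of called cells had iNKT V beta segments in BM only and 35.85% in BM + Spl. The weighted values are therefore not read as differences between like cells.

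Within the NKT1-like gate 5 of 8 members with enough UMIs passed 1.5-fold between BM + Spl and BM only, 3 higher and 2 lower, against 15.2% of all genes tested. Itga4 was at 13.5 CPM (11.4 to 15.9) in BM only and 106 (94.5 to 119) in BM + Spl, or 2.98 as log2 ratio (2.68 to 3.28). Itgb1, with which alpha 4 forms VLA-4, was at 239 and 422 (0.82), and Itgav at 17.1 and 41.9 (1.29). In the same cells Itgae was at 288 and 106 CPM (-1.44) and Itga1 at 127 and 56.8 (-1.16). Higher Itga4 thus stood beside lower Itgae and Itga1 in the gate, while Itgal (155 and 154 CPM), Itgb2 (325 and 293) and Itgb7 (257 and 239) did not pass.

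The gate held mostly cells without iNKT V beta segments in BM + Spl, and the levels were therefore taken apart by V beta class. In 1846 BM only and 166 BM + Spl cells with iNKT V beta segments, Itga4 was at 6.83 CPM (5.16 to 8.87) and 73.55 (55.8 to 95.1), or 3.43 as log2 ratio (2.87 to 3.98). Itgae was at 294 and 118 (-1.32), Itga1 at 127 and 49.5 (-1.36), Itgb1 at 217.5 and 347.5 (0.68) and Itgav at 14.9 and 38 (1.35). Each had the direction of the whole gate. The BM + Spl gate held such cells no more often than Cd8a+Cd8b1+ cells did, so these ratios do not show that iNKT cells differed. In cells with other V beta segments, 153 in BM only and 297 in BM + Spl, Itga4 was at 68.3 and 135 CPM (0.98), Itgae at 205 and 69.85 (-1.55) and Itga1 at 114 and 52.4 (-1.13). The log2 ratio of Itgb1 was 0.38 in these cells and that of Itgav 0.37 (-0.49 to 1.29), neither past 1.5-fold. Inside BM only alone, NKT1-like cells with other V beta segments had 3.32 higher log2 Itga4 than those with iNKT segments, while Itga1 did not differ beyond counting error (log2 ratio -0.15, from -0.51 to 0.20). Levels of Cd4 and Klrb1c in the gate moved with the library as given above, and their part in these values was not tested.

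**Figure D3:**
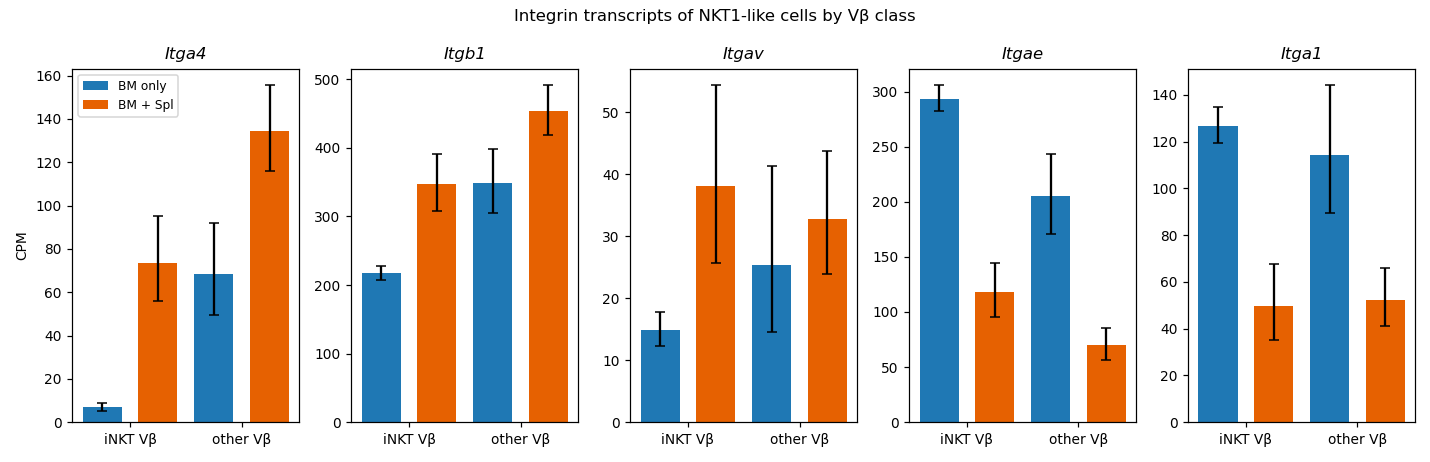
Level (CPM, linear axes from 0, each panel with its own range) of 5 integrin genes in NKT1-like cells of BM only and BM + Spl, split by whether the cell used an iNKT V beta segment. Bars are CPM of summed UMIs with exact 95% Poisson intervals; in both V beta classes Itga4 is higher, and Itgae and Itga1 lower, in BM + Spl.

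NKT2-like cells differed least between the BMT libraries. By the fold alone 1 of 8 members with enough UMIs, Itgae, passed, against 1.28% of all genes tested. It was at 47 CPM (41.9 to 52.4) in BM only and 29.5 (26.5 to 32.8) in BM + Spl, or -0.67 as log2 ratio (-0.89 to -0.45). In BM only the Itgae level of NKT2-like cells lay above that of B cell-like cells (22.9 CPM, from 16 UMIs). In BM + Spl it was no higher than in B cell-like cells (36.3 CPM, 23.5 to 53.6, from 25 UMIs). The size of this ratio is therefore not read. The log2 ratios of the other 7 lay between -0.35 for Itga4 and 0.02 for Itgb2. Itga1 had 4 and 2 UMIs in these cells, so a difference was not detectable at this depth. In NKT17-like cells 1 of 5 members with enough UMIs passed, against 10.6% of all genes tested. This was again Itgae, at 241 CPM in BM only and 79 in BM + Spl (log2 ratio -1.61), or 249 and 123 (-1.02) in cells with iNKT V beta segments. In BM + Spl these were 57 cells, and the gate held such segments about as often as Cd8a+Cd8b1+ cells did. Itga4 (44.9 and 80.7 CPM, log2 ratio 0.85) and Itgav (17.2 and 49.7, 1.53) were past 1.5-fold with fewer than 200 UMIs.

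In further gates Itgae was lower in BM + Spl past 1.5-fold in Cd8a+Cd8b1+ cells (log2 ratio -0.64), interferon-like cells (-1.68) and cells that entered no gate (-1.70). Interferon-like cells and cells in no gate had 176 and 139 CPM in BM only. Their BM + Spl levels of 55.1 and 42.6 CPM lay near the 36.3 of B cell-like cells. After thinning, 8.9% and 7.51% of them had a UMI there, against 10.1% of B cell-like cells. The size of their ratios is therefore not read. In cycling-like cells the log2 ratio was -1.12, but the BM + Spl level of 24.4 CPM was not above that of B cell-like cells. Treg-like cells did not pass 1.5-fold, and there the log2 ratio of Itgae (-0.44) was close to those of Itgal (-0.39), Itgb2 (-0.32), Itgb1 (-0.40), Itgb7 (-0.32) and Itgav (-0.40), so that it was not particular to Itgae. By CPM Itgae was not lower in the intermediate gate, with 169.9 in 144 BM only cells and 170.7 in 68 BM + Spl cells (0.01, from -0.38 to 0.38). After thinning, 34.85% (26.8 to 43.6%) and 20.9% (11.9 to 32.6%) of intermediate cells had a UMI, with overlapping intervals. It was also not lower in the pDC-like and B cell-like gates, where levels were below 50 CPM and the log2 ratios were 0.72 and 0.67. After thinning, a UMI of Itgae was found in 41.8% and 15.4% of NKT1-like cells of BM only and BM + Spl, in 9.1% and 7.34% of NKT2-like cells and in 65.4% and 59.3% of Treg-like cells. The share in B cell-like cells was 2.33% (0.283 to 8.15%) and 10.1% (4.18 to 19.8%), the latter from 7 of 69 cells. That of NKT2-like cells in BM + Spl was not above it, so the size of their change is not read. This background is rough, as 22 of the 72 B cell-like cells of BM + Spl had a V beta call. Cycling-like cells of that library had a lower share, 5.4%. Before thinning the shares were 57.4% and 22.4% in NKT1-like cells, 19.3% and 15.1% in NKT2-like cells, 81.8% and 77.7% in Treg-like cells and 8.14% and 15.3% in B cell-like cells.

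**Figure D4:**
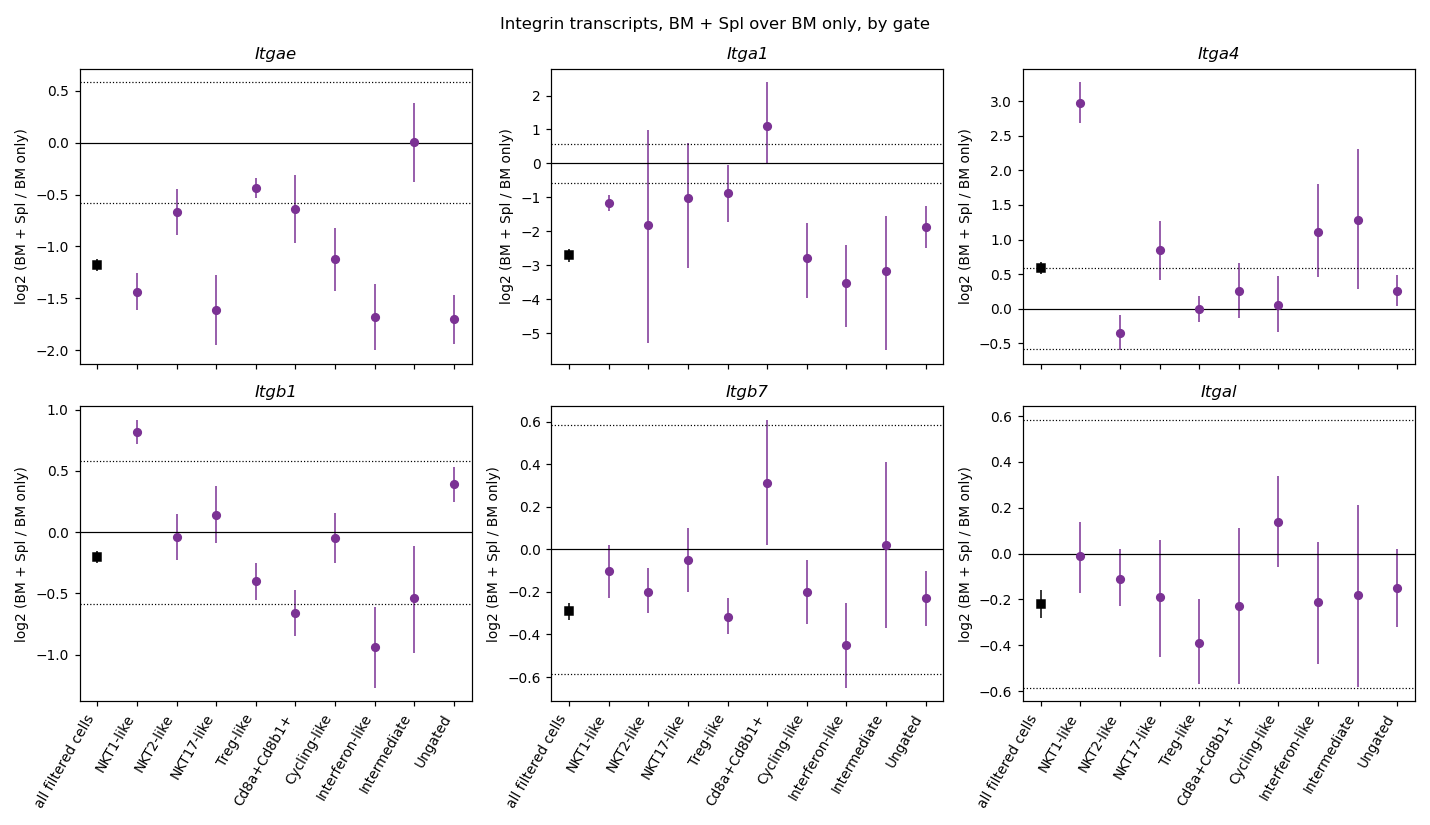
Log2 ratio of CPM in BM + Spl over BM only for 6 integrin genes, in all filtered cells (square) and by gate (circles), each panel with its own range. Bars are conditional exact 95% intervals and dotted lines mark 1.5-fold; Itgae is below 0 in every gate drawn except the intermediate gate, Itga4 is near 3 in NKT1-like cells, and Itgal stays within 1.5-fold.

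Partner chains were also read in the same cells, after thinning to 2500 UMIs. Of Treg-like cells with an Itgae UMI, 74.3% had an Itgb7 UMI in both BM only (69.4 to 78.8%) and BM + Spl (69.6 to 78.7%), against 59.9% (52.5 to 67%) and 53.3% (47 to 59.5%) of those without one, by exact binomial intervals. In NKT1-like cells of BM only the shares were 49.2% and 41.1%, and in NKT2-like cells of C57BL/6 45.9% and 33.3%. In NKT17-like cells of BM only they were 69.7% in both. Itga1 and Itgb1 were found together in 43.4% of NKT1-like cells with Itga1 in BM only, against 36.2% of those without, and in BM + Spl the shares were 50.7% in both. For Itga4 and Itgb1 in NKT1-like cells of BM + Spl they were 63.6% (53.4 to 73.1%) and 47.5% (42.6 to 52.5%). For Itga4 and its other partner Itgb7 in the same cells they were 55.6% (45.2 to 65.55%) and 38.4% (33.7 to 43.35%). The higher share was thus not particular to Itgb1. For Itgal and Itgb2 in NKT2-like cells of C57BL/6 the shares were 38% and 36%, with overlapping intervals.

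Of 18 further integrin subunit genes, 5 reached 100 UMIs in a library. Itgb8, the beta chain with which alpha v activates TGF-β, had 78% of its UMIs in BM only and 62.5% in BM + Spl in Treg-like cells, at 40.1 and 39.7 CPM, where Itgav was also highest. Lrrc32, which encodes the TGF-β docking protein GARP, had its highest level there too (24.2 and 48.8 CPM). Itgax, a dendritic cell integrin, was at 103 and 81.7 CPM in pDC-like cells of BM only and BM + Spl. Itga2 was higher in NKT1-like than NKT2-like cells of C57BL/6 (15 against 6.41 CPM, log2 ratio 1.23). Itga6 was at 25.9 and 29.6 CPM in these cells. Itga5 had 116, 86 and 67 UMIs in C57BL/6, BM only and BM + Spl, or 1.97, 2.47 and 1.55 CPM.

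Of 22 genes that regulate integrin activity, 19 had enough UMIs for NKT1-like over NKT2-like cells, and 6 were higher and 1 lower past 1.5-fold in C57BL/6, 3 and 1 in BM only and 4 and 1 in BM + Spl, beside 26.1%, 27.2% and 27.8% of all genes tested. For NKT17-like over NKT2-like cells the counts among 19 were 2 and 0, 2 and 1, and 3 and 0, beside 15.6%, 21.0% and 26.1% of all genes. The largest ratios in C57BL/6 were those of Apbb1ip (RIAM, a Rap1 effector, log2 ratio 0.82), Fyb (ADAP, an adaptor, 0.81) and Rap1b (0.72), and the lowest those of Rap1a (-0.70), Fermt3 (kindlin-3, -0.48) and Itgb1bp1 (-0.20). Rap1a and Rap1b, which encode closely related GTPases, thus lay on opposite sides. Between BM + Spl and BM only 3 of 19 were lower and none higher in NKT1-like cells, Rasgrp2 (an activator of Rap1, log2 ratio -1.09), Ptk2b (-0.70) and Sipa1 (an inhibitor of Rap1, -0.69), a count near the 15.2% of all genes tested. In NKT2-like cells 0 of 19 passed, beside 1.28% of all genes, where log2 ratios ran from -0.43 for Pxn (paxillin), -0.36 for Rasgrp2 and -0.28 for Cyth1 and Rapgef1 to 0.21 for Itgb1bp1 and 0.10 for Rap1a.

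Of 15 ligand genes 4 had enough UMIs for NKT1-like over NKT2-like cells of C57BL/6, and 2 were higher, beside 26.1% of all genes tested. In BM only 2 of 4 and in BM + Spl 2 of 3 were higher, beside 27.2% and 27.8%, and none was lower. For NKT17-like over NKT2-like cells 1 of 3, 1 of 3 and 2 of 3 were higher in C57BL/6, BM only and BM + Spl, beside 15.6%, 21.0% and 26.1%, and with so few genes these shares are not read further. Cdh1, which encodes E-cadherin, the ligand of CD103 integrin, was at 37.8 CPM in NKT1-like and 1.22 in NKT2-like cells (log2 ratio 4.95, from 4.38 to 5.57). In BM only it was at 59.9 and 0.741 CPM. Icam1, a ligand of LFA-1, was at 59.8 and 14.5 CPM (log2 ratio 2.05). Transcripts of Itgae and of its ligand were thus both found in the NKT1-like gate, but whether in the same cells was not read. Between BM only and BM + Spl, Cdh1 of this gate was at 59.9 and 25.5 CPM (log2 ratio -1.23). Its Icam1 was at 122 and 67.7 (-0.85). These were the 2 of 4 ligand genes with enough UMIs that passed 1.5-fold here, beside 15.2% of all genes tested. Tgfb1 (0.52) and Icam2 (0.13) lay on the other side of 0 and did not pass. The gate held unlike shares of iNKT V beta segments in the BMT libraries, and these ratios were not split by V beta class. In BM + Spl, Cdh1 was highest in pDC-like cells (40.6 CPM), which held 50.5% of its UMIs. In NKT2-like cells Icam2 had a log2 ratio of 0.28 and passed no limit.

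The likeness of other genes was measured as Pearson's r of log2(CPM + 1) over 26 groups, each a gate of a library with at least 100 cells, among 6445 genes with at least 500 UMIs in every library. Values were centred on each library, and members and gate markers were left out of the genes compared. The groups share libraries, depth and cells of neighbouring states, so r is a description only. Itga1 was most alike to Klrk1 (0.936), Fasl (0.920) and Klrc1 (0.905), an NK receptor, a death ligand and a further NK receptor. Itgae was nearest to Ltb (0.898), Resf1 (0.897) and Anxa11 (0.889), and Itgb7 to Dgat1 (0.920), Capg (0.913) and Capn2 (0.881). For Itgav the nearest were Sdf4 (0.915), Hif1a (0.897) and Odc1 (0.885), and for Itgb3 Ramp1 (0.887), Glb1 (0.842) and Runx1 (0.834). Itgb1 was nearest to Sbds (0.902), Dock11 (0.894) and Glipr2 (0.893). Itgal had Il18r1 (0.900), St6galnac3 (0.890) and Tmem71 (0.882), and Itgb2 Adora2a (0.872), Gimap6 (0.859) and Cul3 (0.853). Itga4 had the weakest likeness, with Prkca (0.782), Tm2d3 (0.771) and Grap (0.763).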

How the data were processed

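The authors aligned reads to mm10 with Cell Ranger and deposited raw UMI counts per gene and cell, not normalized. The matrix headers name Cell Ranger 3.0.2 for C57BL/6 and 7.0.0 for BM only and BM + Spl, and the processing notes name Seurat 4.0.2 for later steps, whose output was not used here. The kits named are for 3' and 5' ends, and which library had which is not given in the sources used here. Members and gene lists were chosen with earlier results of these data known.

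Levels were taken over the 30406 shared identifiers. Cells with more than 200 and fewer than 6000 genes and less than 10% mitochondrial UMIs, over all genes of their library, were kept. The study states this filter but gives other cell numbers after it, lower ones for both BMT libraries. A further step that would remove cells is not given in the sources used here. The 5970 BM only and 5557 BM + Spl cells analysed here therefore include cells that the study did not use. A cell entered the first gate it passed, in the order B cell-like, pDC-like, myeloid-like, Treg-like, Cd8a+Cd8b1+, cycling-like, interferon-like and NKT17-like (2 to 4 detected markers of each list, Foxp3 required for Treg-like). Remaining cells were NKT1-like or NKT2-like when they led by at least 2 markers of lists of 8, with Zbtb16 required for NKT2-like, and cells with at least 2 of each list, a smaller lead and Zbtb16 were called intermediate. Counts were summed per gate and divided by all UMIs of the gate. Levels have exact Poisson, shares Clopper-Pearson and ratios conditional binomial intervals, at 95%. As each condition had 1 library, no p-value was computed. Doublets and free RNA were not removed. A V beta call needed at least 80% of a cell's V beta UMIs in 1 segment, with Trbv12-2 and Trbv13-2 counted together as 1. The call was iNKT when that segment was Trbv1, Trbv12-2, Trbv13-1, Trbv13-2, Trbv13-3 or Trbv29. Thinning to 2500 UMIs left out 13, 835 and 472 cells of C57BL/6, BM only and BM + Spl. All 9 members were named, further subunits with at least 100 UMIs in a library, and of the lists of activation and ligand genes the 3 with the largest ratios either way in a set comparison (NKT1-like over NKT2-like in C57BL/6, and BM + Spl over BM only in NKT2-like cells). Other genes of these lists were named after their values were seen. Tail sequences came from the longest coding transcript that holds the motif. Python 3.11.15, NumPy 2.4.6, SciPy 1.17.1, pandas 2.3.3, Biopython 1.88 and Matplotlib 3.10.9 were used, and the ratios and calls were tested on simulated data.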

Additional observations from a re-analysis of the deposited data

Results flagged for a closer look

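Itga4 stood out because the direction of its ratio differed between libraries, and this difference was not tested. In NKT1-like over NKT2-like cells its log2 ratio was -1.25 in BM only and 2.07 in BM + Spl. In NKT17-like over NKT2-like cells it was -3.81 in C57BL/6, from 4 UMIs in the NKT17-like cells, and 1.67 in BM + Spl. These ratios compare whole gates. In BM + Spl, 35.85% of NKT1-like and 39.58% of NKT17-like cells with a V beta call had iNKT segments. Differences between C57BL/6 and the BMT libraries cannot be told apart from the processing. No other member passed 1.5-fold in opposite directions in these comparisons.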

How the results depend on the processing

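Of 38 log2 ratios of members past 1.5-fold, 35 stayed past it in the same direction under every one of the 9 alternatives for which they had a value, and none turned. The exceptions were Itgb7 in NKT1-like over NKT2-like cells of BM + Spl (0.42 to 0.79), Itgal in NKT17-like over NKT2-like cells of BM only (0.49 to 0.64) and Itga4 in all cells of BM + Spl over BM only (0.57 to 0.86). Alternatives changed the cell filter, the depth of each cell, the gates, the scaling, the genes in the total, the cells of highest depth, the gene minimum and the V beta class, and 1, cells without a Cd8a or Cd8b1 UMI, was chosen after seeing the data. The lower gene minimum leaves each ratio as it was, so none of the 38 could fail or turn under it. With all deposited cells, the NKT1-like and NKT17-like gates of both BMT libraries held the same cells as before, so their ratios between these libraries could not change. Ratios under 200 UMIs in an alternative were counted too, such as Itga4 in NKT1-like cells with iNKT V beta segments (58 and 56 UMIs). Counts of members past the fold moved where thinning left fewer genes with 200 UMIs, to 3 of the 5 in NKT1-like over NKT2-like cells of BM only, 2 of the 5 in NKT17-like over NKT2-like cells of BM + Spl and 0 of the 1 in NKT2-like cells of BM + Spl over BM only. For the same reason 3 members passed in place of 5 in NKT1-like cells of BM + Spl over BM only with iNKT V beta segments. With a minimum of 50 UMIs, 3 passed in place of 1 in NKT17-like cells. No paired analysis was possible because each group has 1 library. With 1 library a group, variation between mice or between captures cannot be seen, and intervals cover counting error only.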
